A study of Mus musculus with 8 samples.

Results

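The anaphase-promoting complex or cyclosome (APC/C) is the ubiquitin ligase that sets the timing of meiotic division, and the RNAs of 10 of its genes were followed in mouse oocytes. The members were chosen by gene symbol and fall into 3 roles: the coactivators Cdc20 and Fzr1, the inhibitors Fbxo5 and Fbxo43, and the subunits Anapc1, Anapc2, Anapc4, Anapc10, Cdc23 and Cdc27. All 10 were among the 15962 genes listed in both sets of tables, and all 10 were among the 13968 genes that passed the filter on low values.

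The APC/C joins ubiquitin to securin and to B-type cyclins, which are then destroyed by the proteasome so that chromosomes can separate and the cell can leave M phase. CDC20 and FZR1 (also called CDH1) recruit these substrates in turn. FZR1 is known for keeping oocytes in prophase arrest, whereas CDC20 drives anaphase. FBXO5 (EMI1) and FBXO43 (EMI2) block the ligase, and EMI2 is the factor that holds ovulated oocytes at metaphase II until fertilization. BTG4 is an adaptor that brings the CCR4-NOT deadenylase to maternal RNAs, which are cleared in large numbers as oocytes mature.

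Polyadenylated RNA was sequenced from 8 pools of 15 oocytes of ICR mice, 2 pools in each of 4 groups. The GV group held fully grown oocytes in prophase arrest with an intact germinal vesicle. The MII group held oocytes that had matured to metaphase II in culture. The Btg4wt and Btg4tm groups held MII oocytes after injection of in vitro transcribed RNA for Myc-tagged BTG4. This was the wild-type protein in Btg4wt and, in Btg4tm, a protein with alanines in place of neighbouring threonine and serine residues. The injected groups therefore carried their own endogenous BTG4 as well, no group injected with another RNA was analysed here, and the labels give no age of the mice. The protocol in the labels names 3 samples a group, and the 2 libraries of each group given here were used. The labels do not say whether pools of a group came from separate mice, so p-values measure the spread between these pools, which may be technical.

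Values are TPM, a share of each library corrected for gene length, scaled here between libraries by the median of ratios. A change is thus given relative to the median gene, and read numbers cannot be had from such shares. The libraries were primed with oligo(dT), so fewer molecules and shorter poly(A) tails cannot be told apart, nor can fewer intact oocytes in a pool and less RNA per oocyte. All 10 oocyte marker genes, among them Zp3 and Gdf9, were above 0 in every library, with a summed level of 39585 to 51644 scaled TPM. On the log2 scale Zp1, Zp2 and Zp3 were called lower in MII against GV oocytes, at -1.72, -2.17 and -2.59. They were called higher in Btg4tm against Btg4wt oocytes, at 1.23, 1.59 and 2.37. Oosp1 was called the other way in both, at 1.32 and -1.12. The MII libraries differed in Zp3, at 943 and 2503 scaled TPM. Has2, Ptx3, Tnfaip6, Amh, Foxl2 and Inhba, of 14 cumulus and granulosa markers, were listed in neither set of tables. Fshr and Cyp11a1 were listed only in the tables of the injected groups. The 6 markers listed in both sets summed to 36.5 and 36.4 scaled TPM in GV and 46.8 and 50.7 in MII libraries. The sum was 47.3 and 47.9 in Btg4wt and 41.8 and 37.2 in Btg4tm libraries. Cyp19a1 and Nr5a2 made up most of that sum. Inha, the inhibin alpha gene, moved apart from it, at 4.37 and 2.11 scaled TPM in GV, 0 and 0.532 in MII, 1.88 and 1.09 in Btg4wt, and 9.83 and 5.18 in Btg4tm libraries. It was called lower in MII against GV oocytes (-1.72, limma adjusted p = 0.0048) and higher in Btg4tm against Btg4wt oocytes (1.74, limma adjusted p = 0.0061). These are the directions of Fzr1 below, and the part of Inha in the results was not tested. Kitl, Cyp19a1 and Nr5a2 went the other way without a call, at 0.95, 0.63 and 0.27 in MII against GV oocytes. In Btg4tm against Btg4wt oocytes they were at -0.76, -0.23 and -0.87. Star was at -0.12 and 0.34 and passed the adjusted p in neither comparison. Mitochondrially encoded genes took 0.6254% and 0.6508% of the GV libraries and 2.6% to 2.707% of the MII libraries. They took 1.766% to 2.069% of the Btg4wt and 0.7737% to 1.031% of the Btg4tm libraries. Scaling to these genes moved the median log2 fold change of all genes from 0.00 to -1.74 in MII against GV oocytes and from 0.01 to 0.88 in Btg4tm against Btg4wt oocytes.

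The 3′ ends of 5 members are shown first, because the tail that the oligo(dT) primer captures begins there. In oocytes, elements of the form TTTTAT or TTTTAAT near the polyadenylation signal are known to direct the lengthening of tails during maturation. The windows below are 30 bases long, read 5′ to 3′ on the transcript strand of GRCm38 from the principal GENCODE M21 transcript of each gene, and stop at the last base of the motif. Capitals mark the polyadenylation signal (AATAAA or ATTAAA) nearest to the transcript end and any TTTTAT or TTTTAAT. Further copies of ATTAAA upstream of it, in Fbxo43 and Cdc27, are left in lower case.
Cdc20, chr4:118432917-118432946, minus strand: tcttgtTTTTATTTTATtttttctAATAAA
Fbxo5 signal, chr10:5799171-5799200, minus strand: atacacataattttgtttagttaaAATAAA
Fbxo5 upstream element, chr10:5799238-5799267, minus strand: taaatgtttgtcaatgtgagttttTTTTAT
Fbxo43, chr15:36150080-36150109, minus strand: aagtggttaaaattaaaactaataATTAAA
Cdc27, chr11:104502760-104502789, minus strand: tcattaaaggatatggaaaatccaAATAAA
Anapc1, chr2:128610121-128610150, minus strand: acccctattcctacaagtgaccccAATAAA

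Cdc20 has the shortest 3′ untranslated region of the 10 members, with 62 bases, and within it lie 2 TTTTAT elements that overlap by 1 base just ahead of the signal. Fbxo5 has 1 such element, which ends 78 bases before the transcript's end, while its signal ends 11 bases before it. None was found in the last 100 bases of the other 8 members. Over the 10401 tested genes with an untranslated region of at least 100 bases, 20.2% held an element on the transcript strand in that window and 81.7% held a signal. Neither AATAAA nor ATTAAA was in the last 100 bases of Fzr1 or of Anapc10, which has the longest 3′ untranslated region of the members with 3897 bases. The median over 11080 tested genes was 926 bases. The 3′ end in use in these oocytes was not measured, and a match describes letters only.

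Several members share sequence with other genes, which can cost them reads because the authors dropped reads of low mapping quality and counted both strands together. Of the bases of the Cdc20 transcript, 35.8% lie in 50-base stretches that also occur, on either strand, in other annotated transcripts. These are transcripts of the processed pseudogenes AC132235.3 and Gm7856 and of Elovl1. For Fbxo5 this share was 21.4%, for Anapc10 5.99% and for Fbxo43 2.85%. Cdc23 shares 27.1% with Kif20a, a kinesin gene on the opposite strand whose exons overlap 13.4% of its exonic bases. Kif20a ranged from 60.6 to 96.9 scaled TPM over the 8 libraries, well above Cdc23, so the values of Cdc23 are uncertain. Cdc20 overlaps Elovl1 on the opposite strand over 2.84% of its exonic bases. Elovl1 had 131 and 135 scaled TPM in GV, 17.5 to 27.3 in MII and Btg4wt, and 74.0 and 89.8 in Btg4tm libraries, and its part in the Cdc20 values was not tested. No 50-base stretch of Fzr1, Anapc1, Anapc2, Anapc4 or Cdc27 was shared.

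Within GV oocytes the levels spanned from 378 ± 5.71 scaled TPM (SD, n = 2) for Fbxo5 to 6.07 ± 1.51 for Anapc1. These are deposited TPM, per length by gene lengths that are not given, and the shared sequence above may lower Cdc20, Fbxo5 and Cdc23 against the others, so the order between genes is approximate. The order was Fbxo5, Cdc20, Cdc27, Fbxo43, Anapc4, Fzr1, Anapc10, Anapc2, Cdc23 and Anapc1, in which Anapc4 and Fzr1, and Cdc23 and Anapc1, had overlapping libraries. MII and Btg4wt oocytes had the same order as each other, namely Fbxo5, Cdc20, Cdc27, Fbxo43, Anapc10, Anapc4, Anapc2, Fzr1, Anapc1 and Cdc23, and no neighbours overlapped in either group. Fzr1 thus stood in the sixth place in GV and in the eighth in MII oocytes. In Btg4tm oocytes the order was Fbxo5, Cdc20, Fbxo43, Cdc27, Anapc10, Anapc4, Fzr1, Anapc2, Cdc23 and Anapc1, with overlap between Fbxo5 and Cdc20 and between Anapc10 and Anapc4.

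**Figure D1:**
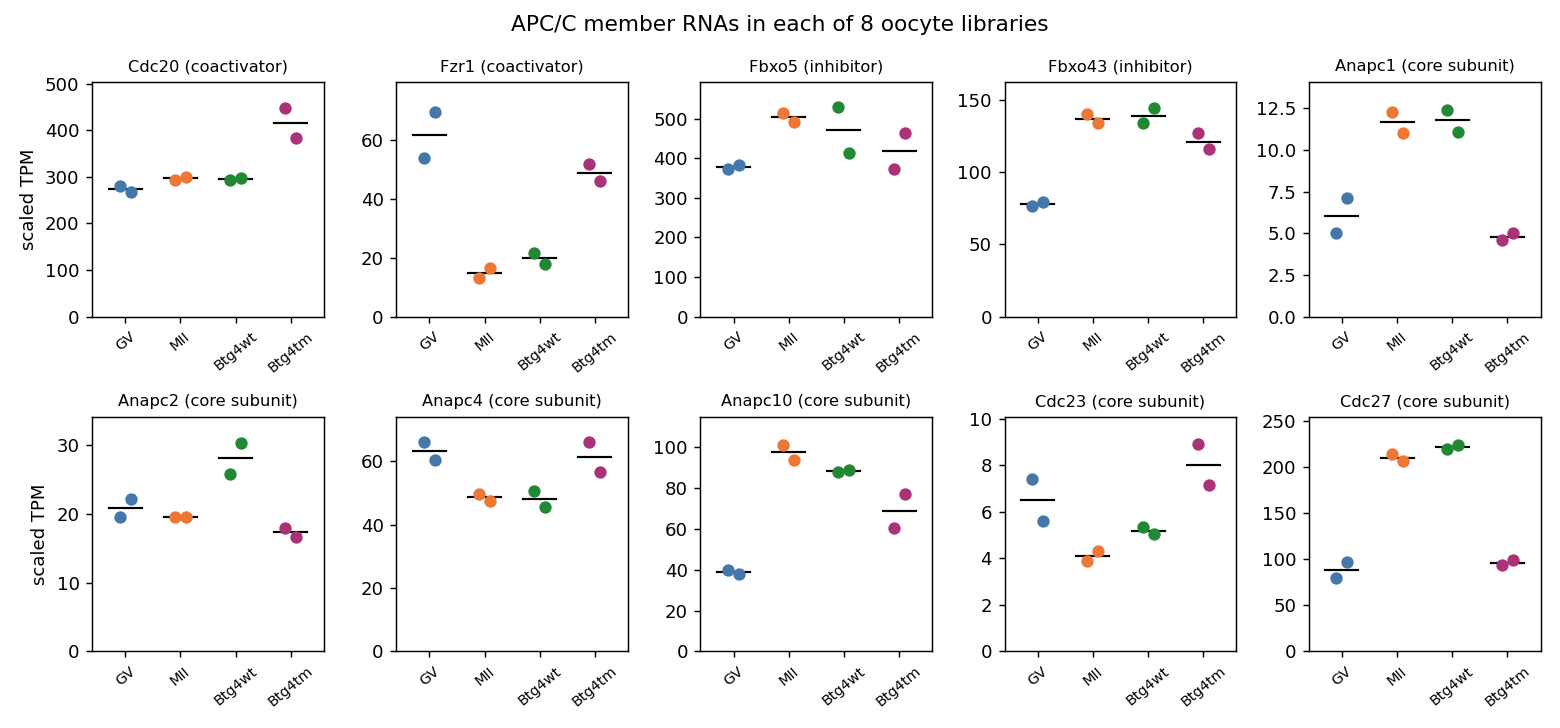
Scaled TPM of the 10 members, with a linear axis from 0 in each panel, in GV, MII, Btg4wt and Btg4tm oocytes. Points are the 2 libraries of a group and bars their mean. Fzr1 is low in MII and Btg4wt libraries (13.2 to 21.8) and high in GV and Btg4tm libraries (46.0 to 69.6), whereas Cdc27 is high in the former (207 to 224) and low in the latter (79.9 to 99.1).

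The comparison of MII with GV oocytes asks how these RNAs change as oocytes mature. By the call used here, an adjusted p under 0.05 with an absolute log2 fold change over 1 in limma, 2 members rose (Anapc10 and Cdc27) and 1 fell (Fzr1). Over all 13968 genes tested, 12.5% were called higher and 24.0% lower. By the adjusted p alone, 5 members were higher and 3 lower, so 8 of 10 passed where 62.6% of all genes did. The median log2 fold change of the members was 0.27, with 0.00 over all genes. Scaled to the mitochondrially encoded genes, 0 members were called higher and 8 lower, and all genes gave 7 higher and 11403 lower, against 1752 and 3351 here. On that scale Anapc10 at -0.88 and Cdc27 at -0.96 changed sign but lay above the all-gene median of -1.74, and Fzr1 at -4.09 lay below it.

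The comparison of Btg4tm with Btg4wt oocytes asks what the mutant does to the same RNAs when both groups were injected, and it shares no library with the first. One coactivator RNA, Fzr1, rose, and the subunit RNAs Anapc1 and Cdc27 fell. Over all genes 18.1% were called higher and 7.94% lower. By the adjusted p alone, 3 members were higher and 4 lower, so 7 of 10 passed where 49.5% of all genes did. The median log2 fold change of the members was -0.18, with 0.01 over all genes. Scaled to the mitochondrially encoded genes, 4 members were called higher and 0 lower, and all genes gave 6089 higher and 69 lower, against 2534 and 1109 here. The falls of Anapc1 and Cdc27 lost their call on that scale, with log2 fold changes of -0.18 and -0.12 that lay below the all-gene median of 0.88.

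**Figure D2:**
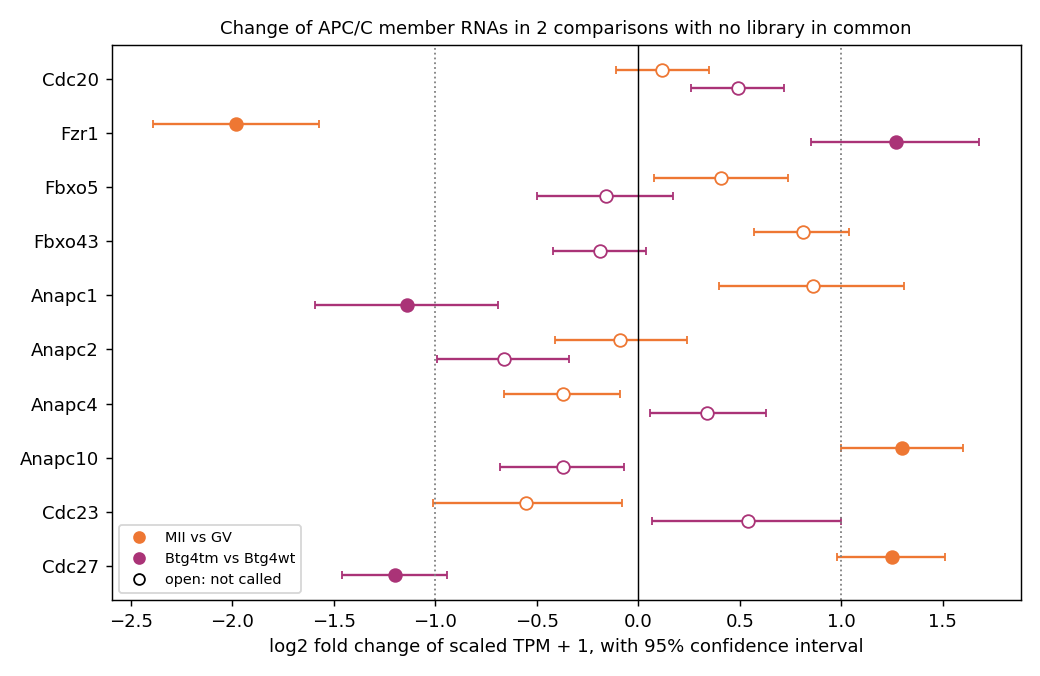
Log2 fold change of scaled TPM + 1 with its 95% confidence interval from limma for each member, in MII against GV oocytes and in Btg4tm against Btg4wt oocytes. Filled points passed the call and dotted lines mark the fold limit. Fzr1 is at -1.98 and 1.27, and Cdc27 at 1.25 and -1.2. Scaling to the mitochondrially encoded genes shifted all genes down in the first comparison and up in the second, which turned Cdc27 to -0.96 in the first.

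Fzr1 encodes the coactivator CDH1, which in prophase oocytes keeps cyclin B1 low. It lies on the minus strand of chromosome 10, from 81366222 to 81378516, in 14 exons. Fzr1 had 54.1 and 69.6 scaled TPM in the GV libraries and 13.2 and 16.6 in the MII libraries. In the injected groups it had 21.8 and 17.8 in Btg4wt and 51.8 and 46.0 in Btg4tm libraries. Every GV and Btg4tm library was above every MII and Btg4wt library. On the log2(TPM + 1) scale Fzr1 fell by 1.98 from GV to MII oocytes (SE 0.18, limma adjusted p = 3.3e-05). It was 1.27 higher in Btg4tm than in Btg4wt oocytes (SE 0.18, limma adjusted p = 0.00059). Both calls held under all 17 alternatives, with values from -4.09 to -1.76 and from 1.05 to 2.31. Fzr1 is the only member whose call did so in both comparisons.

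Cdc20, the coactivator of anaphase, lies on the minus strand of chromosome 4, from 118432901 to 118437352, in 10 exons. Its level was 280 and 267 scaled TPM in GV, 294 and 300 in MII, and 293 and 297 in Btg4wt libraries. In Btg4tm libraries it was 448 and 384, above all other libraries. In MII against GV oocytes its log2 fold change was 0.12 (95% confidence interval -0.11 to 0.35, limma adjusted p = 0.33). It turned to -2.09 with scaling to the mitochondrially encoded genes, below the all-gene median of -1.74. Between Btg4tm and Btg4wt oocytes Cdc20 was 0.49 higher (SE 0.10, limma adjusted p = 0.0043), a change that passed the test without reaching the fold limit.

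The ratio of the coactivator RNAs within a library does not depend on the scaling between libraries. Cdc20 RNA per Fzr1 RNA was 5.18 and 3.83 in GV and 22.3 and 18.1 in MII libraries. It was 13.4 and 16.7 in Btg4wt libraries and 8.66 and 8.36 in Btg4tm libraries. The means were 4.51 ± 0.954, 20.2 ± 2.92, 15.1 ± 2.35 and 8.51 ± 0.216 (SD, n = 2) in that order. No groups overlapped in this ratio, and the Btg4tm libraries lay between the GV and the Btg4wt libraries. No test was run on ratios, which are given as a description.

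Of the inhibitors, Fbxo43 encodes EMI2 and lies on the minus strand of chromosome 15, from 36150060 to 36164884. Its level was 76.8 and 79.0 scaled TPM in GV and 140 and 134 in MII libraries. It was 134 and 144 in Btg4wt and 127 and 116 in Btg4tm libraries. The GV libraries were the low ones, and the Btg4tm libraries lay just below the lowest Btg4wt library. Fbxo43 was 0.81 higher in MII than in GV oocytes on the log2 scale (SE 0.10, limma adjusted p = 0.00019), short of the fold limit, and turned to -1.39 with scaling to the mitochondrially encoded genes, above the all-gene median there. Between Btg4tm and Btg4wt oocytes the log2 fold change was -0.19 with an interval of -0.42 to 0.04 (limma adjusted p = 0.15). With quantile normalization it was -0.39 and passed the adjusted p (0.014).

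Fbxo5, which encodes EMI1, had the highest mean level of the members in every group. It lies on the minus strand of chromosome 10, from 5799160 to 5805600. Its level was 374 and 382 scaled TPM in GV, 514 and 491 in MII, 530 and 412 in Btg4wt, and 373 and 464 in Btg4tm libraries. The injected groups overlapped each other. The value of 0.41 for MII against GV oocytes passed the adjusted p narrowly (SE 0.15, limma adjusted p = 0.037) and turned to -1.80 with scaling to the mitochondrially encoded genes. It no longer passed when either library of GV or MII oocytes was left out, with adjusted p-values of 0.12 and 0.091 without GV replicate 1 and 2 and of 0.13 and 0.082 without MII replicate 1 and 2. Between Btg4tm and Btg4wt oocytes the value was -0.16, with an interval of -0.50 to 0.17. The ratio of Fbxo43 to Fbxo5 RNA was 0.206 and 0.207 in GV and 0.272 and 0.273 in MII libraries. In Btg4wt and Btg4tm libraries it was 0.252 and 0.350, and 0.341 and 0.249, which overlapped.

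**Figure D3:**
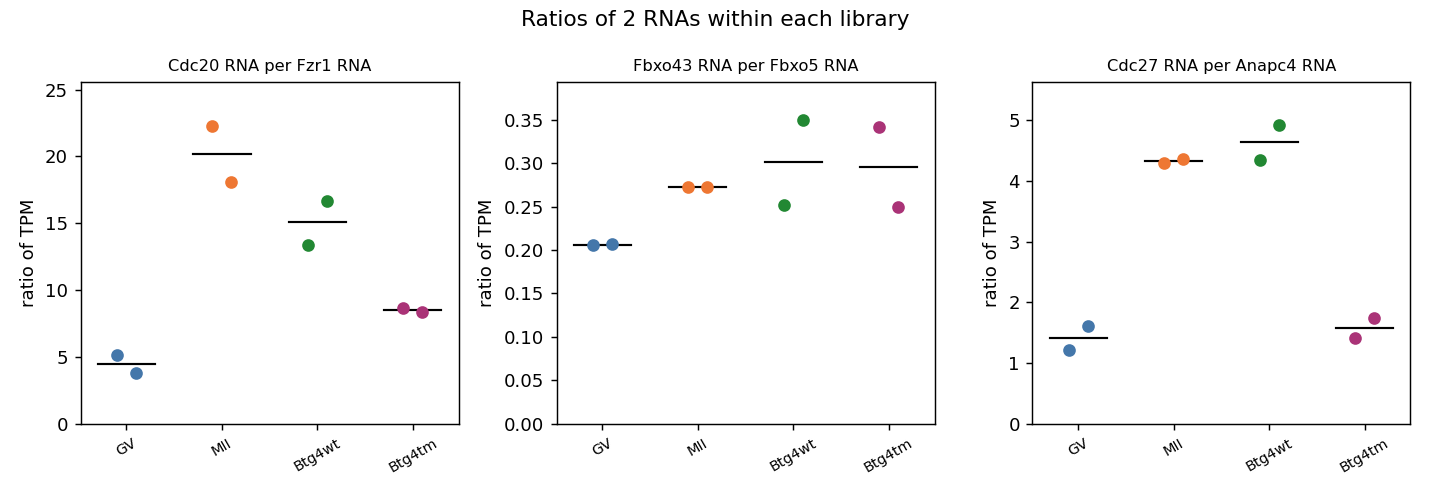
Ratio of TPM of a pair of member RNAs within each library, with linear axes from 0, in the 4 groups. Points are libraries and bars the mean of 2. Cdc20 per Fzr1 is 3.83 and 5.18 in GV and 18.1 and 22.3 in MII libraries, Fbxo43 per Fbxo5 overlaps between the injected groups, and Cdc27 per Anapc4 is 1.21 to 1.75 in GV and Btg4tm and 4.29 to 4.93 in MII and Btg4wt libraries.

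Among the subunits, Cdc27 encodes APC3, a tetratricopeptide-repeat protein that docks the coactivators. It lies on the minus strand of chromosome 11, from 104502745 to 104550620, in 19 exons. Its level was 79.9 and 97.1 scaled TPM in GV and 214 and 207 in MII libraries. It was 220 and 224 in Btg4wt and 93.3 and 99.1 in Btg4tm libraries. All MII and Btg4wt libraries were above all GV and Btg4tm libraries, the reverse of Fzr1. Cdc27 rose by 1.25 from GV to MII oocytes (SE 0.11, limma adjusted p = 3.4e-05) and fell by 1.2 in Btg4tm against Btg4wt oocytes (SE 0.11, limma adjusted p = 7e-05). Each call held under 16 of 17 alternatives, the exception being the mitochondrial scaling.

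Anapc10 encodes the subunit that helps a coactivator to bind the substrate's degron. It lies on the plus strand of chromosome 8, from 79711820 to 79779059. Its level was 40 and 38 scaled TPM in GV and 101 and 93.6 in MII libraries. It was 87.9 and 88.9 in Btg4wt and 60.2 and 76.8 in Btg4tm libraries, which thus lay between GV and Btg4wt libraries. Anapc10 rose by 1.3 from GV to MII oocytes (SE 0.13, limma adjusted p = 6.1e-05), again except with the mitochondrial scaling. Between Btg4tm and Btg4wt oocytes its log2 fold change of -0.37 passed the adjusted p narrowly (SE 0.13, limma adjusted p = 0.045), turned to 0.70 with the mitochondrial scaling, and passed in 1 of the 8 fits that left out a library. The fit in which it passed was the one without Btg4tm replicate 2, and without Btg4tm replicate 1 the value was -0.20.

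Anapc1 encodes the large scaffold subunit and has the longest transcript of the members, with 8942 bases in 48 exons. Its level was low throughout, at 5 and 7.14 scaled TPM in GV, 12.3 and 11 in MII, 12.4 and 11.1 in Btg4wt, and 4.58 and 5.03 in Btg4tm libraries. The MII and Btg4wt libraries were the high ones. Anapc1 fell by 1.14 in Btg4tm against Btg4wt oocytes (SE 0.20, limma adjusted p = 0.0017), a call that held when any library was left out. From GV to MII oocytes it was 0.86 higher (SE 0.20, limma adjusted p = 0.0054), and it passed the fold limit at 1.08 without GV replicate 2 and at 1.21 with quantile normalization, while the mitochondrial scaling turned it to -1.12.

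Anapc2 encodes the cullin subunit of the catalytic core, next to which the E2 enzyme binds. Its level was 19.6 and 22.2 scaled TPM in GV, 19.6 in both MII, 25.8 and 30.3 in Btg4wt, and 18.0 and 16.6 in Btg4tm libraries. Only the Btg4wt libraries stood above the rest. In MII against GV oocytes the value on the log2 scale was -0.09, with an interval of -0.41 to 0.24. In Btg4tm against Btg4wt oocytes it was -0.66 (SE 0.14, limma adjusted p = 0.0050), and 0.38 with the mitochondrial scaling, where it did not pass.

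Anapc4 encodes a platform subunit that links the scaffold to the catalytic core, and Cdc23 encodes APC8, which belongs to the tetratricopeptide-repeat arm. Anapc4 had 66.2 and 60.3 scaled TPM in GV, 49.7 and 47.5 in MII, 50.7 and 45.5 in Btg4wt, and 66.2 and 56.6 in Btg4tm libraries. Its log2 fold changes were -0.37 from GV to MII oocytes (limma adjusted p = 0.029) and 0.34 in Btg4tm against Btg4wt oocytes (limma adjusted p = 0.049). They passed in 5 and 1 of the 8 fits that left out a library. The first was lost without GV replicate 1 (adjusted p = 0.14), MII replicate 1 (0.085) or MII replicate 2 (0.14), and the second held only without Btg4tm replicate 2. Cdc23 had 7.39 and 5.61 scaled TPM in GV, 3.89 and 4.32 in MII, 5.34 and 5.03 in Btg4wt, and 8.90 and 7.13 in Btg4tm libraries. Its log2 fold changes were -0.55 (limma adjusted p = 0.043) and 0.54 (limma adjusted p = 0.056) in the same comparisons. The former passed in 3 of the 8 fits that left out a library. With the mitochondrial scaling Anapc4 was at -2.55 and 1.41 and Cdc23 at -2.37 and 1.47, all of them called. The all-gene medians on that scale were -1.74 and 0.88. With quantile normalization Anapc4 was at -0.17 and 0.10 and Cdc23 at -0.20 and 0.31, and none passed the adjusted p.

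Changes of the subunit RNAs relative to each other can be read from their shares within a library. The 14 subunit RNAs on the lists summed to 552 and 555 scaled TPM in GV, 644 and 624 in MII, 640 and 632 in Btg4wt, and 604 and 617 in Btg4tm libraries. Within that sum, a share that does not depend on the scaling, Cdc27 held 14.5% and 17.5% in GV and 33.2% in both MII libraries. It held 34.4% and 35.5% in Btg4wt and 15.4% and 16.1% in Btg4tm libraries. Anapc10 held 7.25% and 6.84% in GV, 15.8% and 15.0% in MII, 13.7% and 14.1% in Btg4wt, and 9.96% and 12.5% in Btg4tm libraries. The share of Anapc4 was 12% and 10.9% in GV and 7.73% and 7.61% in MII libraries, and 7.92% and 7.21% in Btg4wt and 11% and 9.18% in Btg4tm libraries. Anapc1 and Cdc23 each held under 2% in every library. Cdc27 RNA per Anapc4 RNA, a ratio chosen after the values were seen, was 1.21 and 1.61 in GV, 4.29 and 4.37 in MII, 4.35 and 4.93 in Btg4wt, and 1.41 and 1.75 in Btg4tm libraries.

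**Figure D4:**
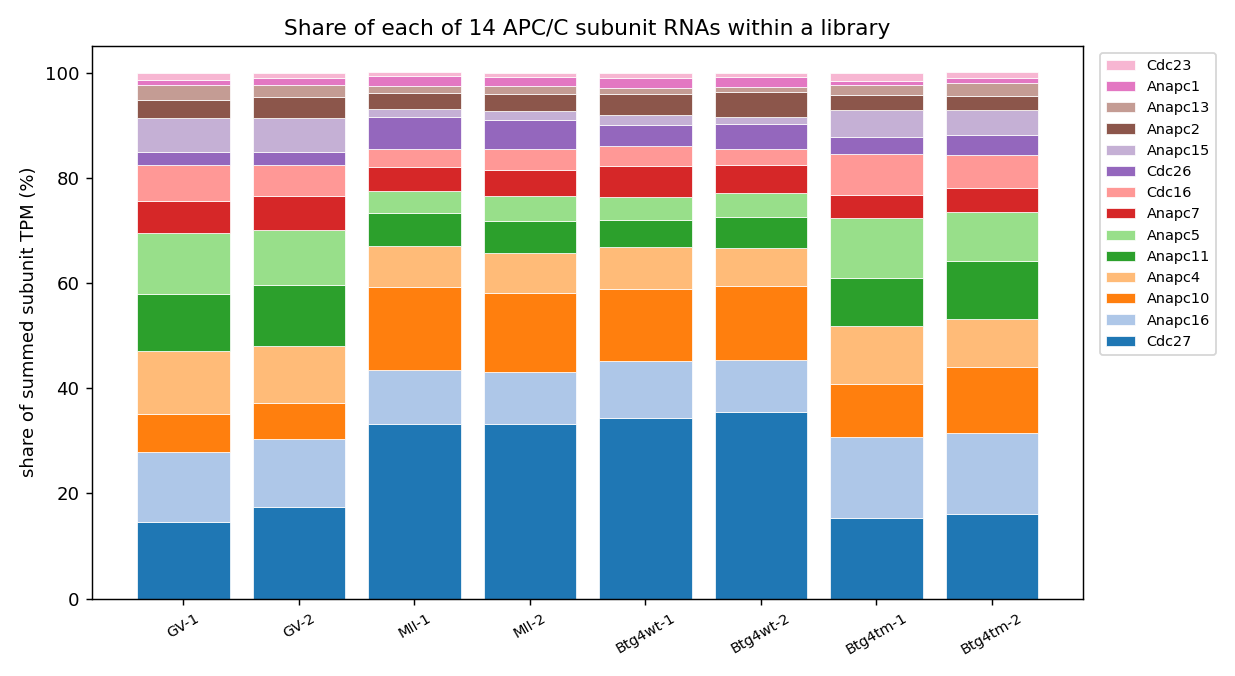
Share in percent of each of 14 APC/C subunit RNAs in their summed TPM, as stacked bars for each of the 8 libraries. Cdc27 takes 14.5% to 17.5% of the bar in GV and Btg4tm libraries and 33.2% to 35.5% in MII and Btg4wt libraries.

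The comparison of Btg4wt with MII oocytes shows the members after injection of the wild-type RNA. Of 10 members, 0 passed an adjusted p under 0.05 in limma in Btg4wt against MII oocytes. The share over all genes was 0%, with 1655 genes under an unadjusted p of 0.05. The largest log2 fold change was 0.49 for Anapc2 (interval 0.17 to 0.82, limma adjusted p = 0.28), next came Fzr1 with 0.39 (interval -0.02 to 0.80) and Cdc23 with 0.28 (interval -0.19 to 0.74). For Cdc20 the interval was -0.24 to 0.22, for Fbxo43 -0.21 to 0.25 and for Cdc27 -0.18 to 0.34. A p that misses the threshold does not show equal levels. Injection, the set of tables and any batch between the sets cannot be told apart in this comparison.

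Btg4tm oocytes, which are labelled MII, were also set beside GV oocytes, a comparison that shares its libraries with those above. None of the 10 members was called, with 2.04% of all genes called. By the adjusted p alone, Cdc20 (log2 fold change 0.60, limma adjusted p = 0.011), Fbxo43 (0.63, limma adjusted p = 0.0093) and Anapc10 (0.79, limma adjusted p = 0.011) were higher, where 11.4% of all genes passed in either direction. With the mitochondrial scaling these became -0.03, 0.01 and 0.17, above the all-gene median of -0.64. Without GV replicate 2, Cdc20 and Anapc10 no longer passed (adjusted p = 0.066 and 0.068). The intervals of the other regulators and of Cdc27 included 0: -0.74 to 0.09 for Fzr1, -0.19 to 0.47 for Fbxo5 and -0.14 to 0.39 for Cdc27.

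The other 8 subunits on the list gave 1 call higher and 2 lower in MII against GV oocytes, and 2 higher and 0 lower in Btg4tm against Btg4wt oocytes. Over all genes the shares were 12.5% higher and 24.0% lower, and 18.1% higher and 7.94% lower, so that the 2 lower of 8 in the first are near the share of all genes. With the mitochondrial scaling, under which all genes gave 7 higher and 11403 lower and then 6089 higher and 69 lower, these became 0 higher and 7 lower, and 6 higher and 0 lower. By the adjusted p alone 1 was higher and 5 lower in the first comparison, where 62.6% of all genes passed in either direction. In the second 6 were higher and 1 lower, where 49.5% of all genes passed. The median log2 fold changes of these 8 subunits were -0.59 and 0.85. Anapc5, a platform subunit, had 63.9 and 57.6 scaled TPM in GV, 26.9 and 29.4 in MII, 27.5 and 28.4 in Btg4wt, and 69.1 and 57.5 in Btg4tm libraries. It fell by 1.08 in MII oocytes (limma adjusted p = 0.00016) and was 1.15 higher in Btg4tm than in Btg4wt oocytes (limma adjusted p = 0.00019). Anapc16 differed by -0.18 and 0.51 in these comparisons, the RING-finger subunit Anapc11 by -0.65 and 0.78, and Anapc7, a tetratricopeptide-repeat subunit, by -0.17 and -0.38. The other calls, named after their values were seen, were Anapc15 (-1.72 and 1.44, limma adjusted p = 5.8e-05 and 0.00025) and Cdc26 (1.37 in MII against GV oocytes, limma adjusted p = 7.4e-05).

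The E2 enzymes hand ubiquitin to the APC/C: UBE2C and UBE2D1 start chains and UBE2S extends them. Ube2s had 133 and 171 scaled TPM in GV, 174 and 171 in MII, 166 and 180 in Btg4wt, and 49.5 and 55.2 in Btg4tm libraries. The Btg4tm libraries stood apart from the other 6, GV included. Ube2s fell by 1.70 in Btg4tm against Btg4wt oocytes (SE 0.14, limma adjusted p = 2.9e-05) and by 1.51 against GV oocytes (SE 0.14, limma adjusted p = 0.0039). Both calls held when any library was left out. With the mitochondrial scaling the values were -0.63 (adjusted p = 0.022, short of the fold limit) and -2.15. In MII against GV oocytes it differed by 0.19 on the log2 scale, with an interval of -0.12 to 0.50. Ube2c ranged from 164 to 231 scaled TPM over the 8 libraries, with log2 fold changes of 0.17 and -0.15 in MII against GV and Btg4tm against Btg4wt oocytes. Ube2d1, at 2.55 to 10.5 scaled TPM, was 1.26 higher in MII than in GV oocytes (limma adjusted p = 0.00060), and turned to -0.59 with the mitochondrial scaling. In Btg4tm against Btg4wt oocytes it was at -0.91 (limma adjusted p = 0.0048), short of the fold limit. The mitochondrial scaling turned that value to 0.04.

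Of 10 substrates, 6 were called higher and 0 lower in MII against GV oocytes (median log2 fold change 1.05), and 0 higher and 2 lower in Btg4tm against Btg4wt oocytes (median -0.48). All genes were called at 12.5% higher and 24.0% lower in the first, and at 18.1% and 7.94% in the second. With the mitochondrial scaling the substrate counts became 0 higher and 8 lower, and 3 higher and 0 lower. On that scale all genes gave 7 higher and 11403 lower, and 6089 higher and 69 lower. There 8 substrates lay above the all-gene median of -1.74 in the first comparison, and 4 above that of 0.88 in the second. The sixth call higher was Ccnb3, just past the fold limit, and was lost without GV replicate 1, MII replicate 1 or either Btg4tm replicate. Pttg1, the gene of securin, had 5797 and 4687 scaled TPM in GV, 15572 and 14688 in MII, 13907 and 12438 in Btg4wt, and 8113 and 9562 in Btg4tm libraries. Its log2 fold changes were 1.54 and -0.58 for MII against GV and Btg4tm against Btg4wt oocytes (limma adjusted p = 3.8e-05 and 0.010). Those of the cyclin gene Ccnb1 were 1.09 and -0.41, of Ccnb2 0.61 and -0.05, and of Gmnn, the gene of the licensing inhibitor geminin, 1.25 and -0.55. The substrates called lower in Btg4tm against Btg4wt oocytes, named after their values were seen, were Ccnb3 by 1.47 and Nek2 by 1.90 (limma adjusted p = 6.5e-05 and 5e-05). By the adjusted p alone 6 substrates were lower and 1 higher in that comparison, where 49.5% of all genes passed in either direction. Aurka, also named after its values were seen, went against the list medians, short of the fold limit. It was at -0.97 and 0.87 (limma adjusted p = 6.4e-05 and 0.00019). When 1 library was left out, its value for MII against GV oocytes ran from -1.03 to -0.89.

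Genes of the spindle checkpoint, which holds CDC20 inactive until chromosomes are attached, gave 1 call higher and 1 lower of 6 in MII against GV oocytes and 0 in Btg4tm against Btg4wt oocytes, where 2 were higher and 2 lower by the adjusted p alone. Among all genes 12.5% were called higher and 24.0% lower in the first. In the second 18.1% of all genes were called higher and 7.94% lower, and 49.5% passed the adjusted p. Mad2l1 rose by 1.28 (limma adjusted p = 1.7e-05) and the kinase gene Ttk fell by 1.06 (limma adjusted p = 0.00050) in MII oocytes. Without GV replicate 1 Ttk was at -0.89 and was not called. Bub1b and Bub3 differed by 0.69 and -0.16 in the same comparison. With the mitochondrial scaling 0 were called higher and 5 lower in the first comparison, and 3 higher and 0 lower in the second. All genes then gave 7 higher and 11403 lower, and 6089 higher and 69 lower. Of the 6 genes, 2 lay above the all-gene median of -1.74 in the first comparison and 3 above that of 0.88 in the second.

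Of 9 genes that act on EMI2, 8 were tested and Rps6ka2 was too low. The list gave 0 calls higher and 1 lower in MII against GV oocytes, and 1 higher and 0 lower in Btg4tm against Btg4wt oocytes, beside 12.5% and 24.0%, and 18.1% and 7.94%, of all genes. Mos, the kinase gene upstream of EMI2's stabilization, differed by 0.68 in MII against GV oocytes (limma adjusted p = 0.0025) and by 0.03 in Btg4tm against Btg4wt oocytes. Plk1 differed by -0.19 and 0.07, Camk2g by 0.69 and -0.63, and Fbxw11 by 0.92 and -0.85. The gene called in both comparisons, named after its values were seen, was Btrc, which encodes the F-box protein beta-TrCP1 that marks EMI1 and EMI2 for destruction. Btrc had 59.7 and 65.7 scaled TPM in GV, 12.9 and 10.9 in MII, 12.9 and 10.4 in Btg4wt, and 60.7 and 47.6 in Btg4tm libraries. It fell by 2.31 in MII oocytes (SE 0.17, limma adjusted p = 1.2e-05) and was 2.12 higher in Btg4tm than in Btg4wt oocytes (SE 0.17, limma adjusted p = 3e-05). Fbxw11 encodes the closely related beta-TrCP2, and its libraries were high where those of Btrc were low, at 45.3 and 46.7 in MII and 21.2 and 27.0 in GV libraries. With the mitochondrial scaling Btrc kept both directions at -4.39 and 3.15. All 8 genes were then called lower in the first comparison and 3 higher in the second. Over all genes that scaling gave 7 higher and 11403 lower, and 6089 higher and 69 lower. The list median was -1.72 beside -1.74 for all genes in the first comparison, and 0.93 beside 0.88 in the second.

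The genes nearest to Cdc20, Fbxo43 and Fbxo5 over the 8 libraries were found by the root mean square difference of centred log2 levels, among the 6874 genes whose mean reached 10 scaled TPM. For Cdc20 they were Chmp2b, Utp18 and Rfc5, at 0.082, 0.088 and 0.092. For Fbxo43 they were Snx2, Sap30 and Coq10b, at 0.037, 0.063 and 0.066, and for Fbxo5 they were Txndc17, Ptpn2 and Alg14, at 0.060, 0.074 and 0.074. The libraries of these genes share the same scaling and groups, and the likeness is a description.

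Btg4 RNA, to which the injected RNA could add, had 2650 and 2794 scaled TPM in GV, 5792 and 6002 in MII, 5178 and 5510 in Btg4wt, and 3725 and 4068 in Btg4tm libraries. No library of the injected groups was above the MII libraries on this scale.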

How the data were processed

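Full-length cDNA from pools of 15 mouse oocytes was sequenced in 8 libraries. According to the submitters' processing notes and the methods, the authors trimmed reads with Trim Galore 0.6.10, aligned them to GRCm38 with HISAT2 2.2.0 and GENCODE vM25, and counted exonic reads with featureCounts 2.0.6 without strand. They deposited TPM per gene symbol. The gene lengths and the rule for listing a gene are not given in the sources used here. TPM are shares, so depth and counting error are unknown.

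The deposited TPM of the 15962 genes common to both sets of tables were scaled by the median of ratios (factors 0.9478 to 1.107) and tested as log2(TPM + 1), which understates the change of low genes. limma 3.58.1 in R 4.3.3 (lmFit, contrasts, eBayes with trend) was fitted to all 8 libraries over the 13968 genes that reached 1 TPM in 2 or more libraries, with Benjamini-Hochberg adjustment over all of them. The procedure was tested on simulated data in which a small set of genes changed, equally up and down. That simulation does not test the scaling where many genes move mostly in a single direction. The authors used DESeq2 on read counts, which were not analysed here. Replicates correlated at 0.9818 to 0.9866 across genes, and their median absolute log2 difference was 0.183 to 0.226.

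The members and the pathway lists were chosen with earlier results of these data known. All members were named, and of each pathway list the 4 genes with the largest mean level, others being marked where they appear. For each regulator the 3 nearest genes were found, and those of Fzr1 are not reported here. Sequences, positions, exons and overlaps came from GENCODE M21 on GRCm38, an earlier release than the authors' annotation, with the principal transcript of each gene.

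Other scalings tried were none, quantile normalization and the mitochondrially encoded genes. Other settings were a filter at 5 TPM or none, a pseudocount of 0.1, eBayes with no trend, a fit of the 4 compared libraries alone, the replicate number as a block, a call with no fold limit, 1 TPM added before a ratio, and each library left out in turn. A group left with 1 library is assumed to vary like the others.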

Additional observations from a re-analysis of the deposited data

How the results depend on the processing

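The number of members called was 3 to 4 in MII against GV oocytes when 1 library was left out, with 4 without GV replicate 2, where Anapc1 joined. It was 3 to 3 in Btg4tm against Btg4wt oocytes and 0 to 0 in the other comparisons. For all genes called, these ranges were 4858 to 5280, 3534 to 3769, 0 to 0 in Btg4wt against MII oocytes, and 108 to 341 in Btg4tm against GV oocytes, with 108 without GV replicate 2 and 285 with all libraries. Without a minimum fold change, 8, 7, 0 and 3 members and 8743, 6917, 0 and 1591 genes were called in MII against GV, Btg4tm against Btg4wt, Btg4wt against MII, and Btg4tm against GV oocytes. Among the pathway lists, leaving out 1 library moved further values across the fold limit, besides those of Ccnb3, Ttk and Aurka above. In Btg4tm against Btg4wt oocytes Anapc13 ran from 0.69 to 1.17, Cdc16 from 0.77 to 1.06 and Ube2d1 from -1.02 to -0.81. Fbxw11 ran from 0.75 to 1.09 in MII against GV oocytes, and Nek2 from -1.03 to -0.70 in Btg4tm against GV oocytes.

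Scaling to the mitochondrially encoded genes, which assumes equal mitochondrial RNA in every pool, called 8 members in the first comparison, and 11410, 6158, 69 and 3010 genes in the same order. Of the 680 member fold changes recomputed, it reversed 12 that passed an adjusted p of 0.05 with either scaling, and it also changed the sign of values that passed with neither. In MII against GV oocytes these were Cdc20 (-2.09), Fbxo5 (-1.80), Fbxo43 (-1.39), Anapc1 (-1.12), Anapc10 (-0.88) and Cdc27 (-0.96). In Btg4tm against Btg4wt oocytes they were Fbxo5 (0.92), Fbxo43 (0.89), Anapc2 (0.38) and Anapc10 (0.70), and in Btg4tm against GV oocytes Cdc20 (-0.03) and Fbxo5 (-0.49). The cause of the shift was not tested. Of the others, 609 stayed on the same side of the threshold, some of them with another sign where they passed in neither fit, 50 no longer passed and 9 newly passed.

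With 1 TPM added to each gene, the Fbxo43 to Fbxo5 ratio was 0.208 in GV and 0.274 in MII libraries. When each library was left out, the Cdc20 to Fzr1 ratio was 3.83 to 5.18 in GV, 18.1 to 22.3 in MII, 13.4 to 16.7 in Btg4wt and 8.36 to 8.66 in Btg4tm oocytes.

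Equal replicate numbers did not pair the libraries: the correlations of their deviations from the group means ran from -0.054 to 0.055. With the replicate number as a block, 3, 3, 0 and 0 members and 5094, 3636, 1 and 285 genes were called. Under the block Fbxo5 in MII against GV oocytes (adjusted p = 0.051) and Anapc10 in Btg4tm against Btg4wt oocytes (adjusted p = 0.058) did not pass.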
